A study of Caenorhabditis elegans with 2 samples.

Results

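The genes described here encode the secreted peptides of Caenorhabditis elegans: the FMRFamide-like peptides (flp genes), the other neuropeptide-like proteins (nlp genes) and the insulin-like peptides (ins genes and daf-28). They were chosen by name, as every protein-coding gene of the Ensembl WBcel235 annotation called flp, nlp or ins with a number, plus daf-28. This gave 141 of 19973 protein-coding genes: 31 flp genes, 71 nlp genes and 39 insulin-like genes. The rule used names and no measured value, but the gene families were picked with earlier results of these data known.

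Chromatin immunoprecipitation and sequencing (ChIP-seq) located the DNA recovered with tagged HLH-17, a basic helix-loop-helix factor related to the Olig proteins and studied in glia of the worm head. Both biological replicates were whole larvae, mixed in sex, of strain OP643. Its transgene wgIs643 holds hlh-17 joined to the tags TY1, EGFP and 3xFLAG, together with a working copy of unc-119, and the background carries the unc-119 allele tm4063. The larvae were first-stage (L1) animals starved after bleaching, 6 h old, their chromatin was sonicated to 200 to 800 bp, and an antibody to the GFP tag was used. The 2 replicates form 1 group, share the transgene and have the same listed control, and no untagged strain was used here, so no comparison between groups was made. The tagged protein comes from an inserted transgene, and whole animals give no information on which cells a peak came from. Peak lists carry no expression, so cell type markers could not be checked.

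Neuropeptides and insulin-like peptides are made as precursors, cut by proteases, packed into dense-core vesicles and released from neurons and other cells. Most flp and nlp peptides act through G protein-coupled receptors. The insulin-like peptides act on the receptor DAF-2, some as activators that favour growth and some as inhibitors that favour arrest, and in starved L1 larvae lowered DAF-2 signalling is known to hold development. The HLH-17 family binds E-boxes, written CANNTG.

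Each relaxed peak list, 1 for each replicate and 1 pooled from both, held 30000 peaks ordered by the authors' signal value, and a thresholded list held 115. The signal scale is not stated and differs between lists (medians of 70.3 in the pooled list, 27.4 in replicate 1 and 50.5 in replicate 2), so ranks within a list are used, with rank 1 the strongest. Such long lists reach far into weak signal, and read depth is unknown. The pooled list is deposited as peaks and background together. Its entries are called peaks here, but a summit in it is not by itself a call of binding. The pooled list is made from the same reads as the replicates and is no independent evidence. A gene was counted as having a peak when a summit lay from 1000 bp upstream to 300 bp downstream of its start, called the start window here.

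The sequences within 50 bp of the pooled summit are printed for well-ranked members of each family, to show the sequence of the places where DNA near these genes was recovered. The summits of nlp-8 and ins-27 ranked higher than the nlp and insulin-like ones printed here. Their sequences are not shown, and neither held an E-box within 50 bp. They are from the RefSeq genome of WBcel235 (ce11), on the plus strand, 5′ to 3′, and capitals mark E-boxes.
flp-5 (chrX:8527347-8527447): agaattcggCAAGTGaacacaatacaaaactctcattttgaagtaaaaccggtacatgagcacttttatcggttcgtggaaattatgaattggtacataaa
flp-28 (chrX:10088090-10088190): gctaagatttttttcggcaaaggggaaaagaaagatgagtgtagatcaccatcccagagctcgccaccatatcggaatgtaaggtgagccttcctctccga
nlp-101 (chrX:7838227-7838327): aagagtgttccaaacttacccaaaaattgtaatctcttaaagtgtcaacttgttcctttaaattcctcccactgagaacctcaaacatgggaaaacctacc
nlp-33 (chrV:11147516-11147616): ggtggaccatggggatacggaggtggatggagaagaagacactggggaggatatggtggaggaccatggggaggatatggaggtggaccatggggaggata
ins-19 and ins-31, which share this peak (chrII:3126407-3126507): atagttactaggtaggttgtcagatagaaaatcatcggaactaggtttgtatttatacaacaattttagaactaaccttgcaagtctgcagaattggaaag
ins-17 (chrIII:4477270-4477370): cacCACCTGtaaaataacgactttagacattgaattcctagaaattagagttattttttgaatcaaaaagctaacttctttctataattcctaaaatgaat
The flp-5 and ins-17 sequences hold 1 E-box each and the others none. The nlp-33 sequence lies inside the nlp-33 exon and is the richest in G and C of the set, at 57.4%, against 26.7% for ins-17. The ins-17 sequence was added because ins-19 and ins-31 have 1 peak between them.

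Peptide genes had a summit in the start window more often than protein-coding genes at large, and none of these summits was in the thresholded list. In the pooled list 70 of 141 members had a summit, 49.6% (exact Clopper-Pearson 95% interval 41.1 to 58.2), beside 32.0% of all protein-coding genes. Replicate 1 gave 69 members, 48.9% (40.4 to 57.5), beside 32.4% of all genes. Replicate 2 gave 71 members, 50.4% (41.8 to 58.9), beside 31.3%. The interval of the members lay above the background in each of these 3 lists. These intervals cover counting error only and treat genes as independent, and no test of the difference was run.

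The same order held where both replicates were asked for. A summit of both replicates lay in the start window of 43 members, 30.5% (23 to 38.8), beside 15.5% of all protein-coding genes. A summit of at least 1 of the 3 lists lay there in 98 members, 69.5% (61.2 to 77), beside 49.7%. A stricter rule asked for a pooled summit with summits of both replicates within 100 bp, here called a shared summit. This held for 21 members, 14.9% (9.46 to 21.9), beside 9.24% of all genes, so that the lower bound lay close to the background. Of the 98 members, 39 had a summit in all 3 lists, a count not taken over all genes, and 43 members had none in any list.

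**Figure D1:**
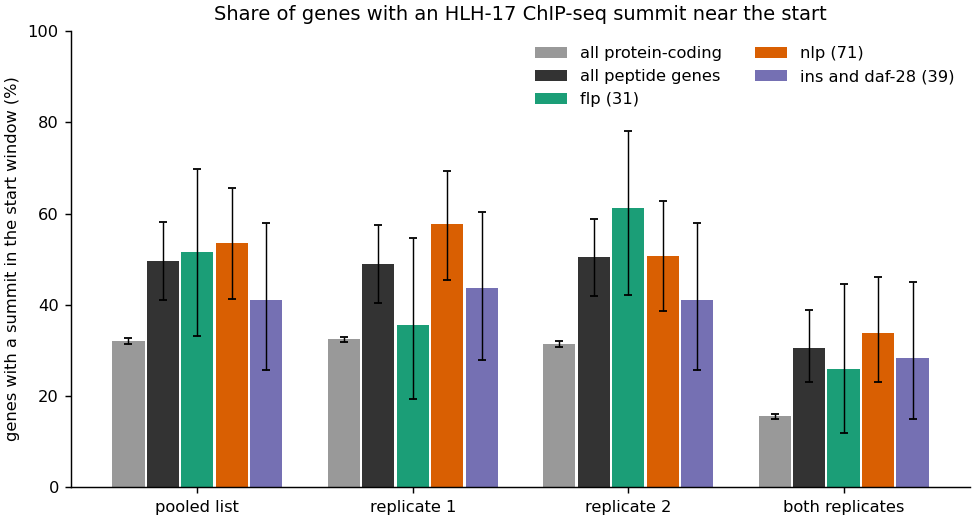
Percent of genes with a summit in the start window, in the pooled list, in each replicate and in both replicates, for all protein-coding genes, all 141 peptide genes and each family; bars are shares and lines are exact 95% intervals. The nlp bars and their intervals are above the grey background bar in every panel group, while the flp bar is 35.5% in replicate 1 and 61.3% in replicate 2.

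The counts at the top of the pooled list were too small to place the members above or below the background. No member had a summit of the thresholded list in its start window, 0 of 141, which allows a share of up to 2.58%, beside 0.365% of all protein-coding genes. No member was among the first 1000 pooled peaks either, beside 1.48% of all genes. Among the first 5000 there were 11 members, 7.80% (3.96 to 13.5), beside 5.91%, and this interval includes the background. In single replicates some members ranked within the first 1000, with nlp-12 at 444, nlp-8 at 514 and flp-5 at 772 in replicate 2 and ins-27 at 477 in replicate 1. The nearest thresholded summits lay outside the windows, 1064 bp from the start of nlp-4 and 1077 bp from that of ins-13. A thresholded summit lay within 10000 bp of 7 members, a count not taken over all genes. The median distance over all members was 287530 bp.

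Members with a peak ranked much like other genes with a peak. Their median pooled rank was 12997, against 14358 for all protein-coding genes with a peak. In replicate 1 the median was 14622 against 13944.5, and in replicate 2 it was 13608 against 13955.5, so the order was not the same in the 2 replicates. The gap between peptide genes and all genes was seen in how many had a summit, while the median ranks had no common direction.

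The 3 families differed in their counts, and only the nlp genes lay above the background with their whole interval in every list. Of 71 nlp genes, 38 had a pooled summit, 53.5% (41.3 to 65.5), 41 a replicate 1 summit, 57.7% (45.4 to 69.4), and 36 a replicate 2 summit, 50.7% (38.6 to 62.8). In both replicates there were 24 nlp genes, 33.8% (23 to 46), beside 15.5% of all genes. A shared summit lay at 11 nlp genes, 15.5% (8 to 26), beside 9.24% of all genes, and this interval includes the background.

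The flp genes depended on the replicate. Of 31 flp genes, 16 had a pooled summit, 51.6% (33.1 to 69.8). In replicate 1 there were 11, 35.5% (19.2 to 54.6), and in replicate 2 there were 19, 61.3% (42.2 to 78.2). Both replicates had a summit at 8 flp genes, 25.8% (11.9 to 44.6), an interval that includes the 15.5% of all genes. A shared summit lay at 3 flp genes, 9.68% (2.04 to 25.8), beside 9.24% of all genes. Of the 16 pooled flp summits, 14 had a replicate 2 summit within 100 bp, 87.5%, beside 70.5% at all protein-coding genes. For replicate 1 it was 4, 25%, beside 48.7%, so the lean to replicate 2 was also present at genes in general.

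The insulin-like genes had the lowest shares in the pooled list and in replicate 2. Of 39 genes, 16 had a pooled summit, 41.0% (25.6 to 57.9), 17 a replicate 1 summit, 43.6% (27.8 to 60.4), and 16 a replicate 2 summit, 41.0%. Each of these intervals includes the background share. In both replicates there were 11, 28.2% (15 to 44.9), beside 15.5% of all genes. A shared summit lay at 7, 17.9% (7.54 to 33.5), beside 9.24% of all genes, and these 2 intervals also include the background. Their median pooled rank was 6728, lower in number and so stronger than the 13719 of the flp genes and the 13172 of the nlp genes. This was not so in replicate 1, where the insulin-like median was 16129, against 14238 for flp and 12345 for nlp genes. In replicate 2 the insulin-like median of 13013.5 was close to the 13159.5 of the nlp genes, with the flp genes at 16611. The intervals of the 3 families overlapped in every list.

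**Figure D2:**
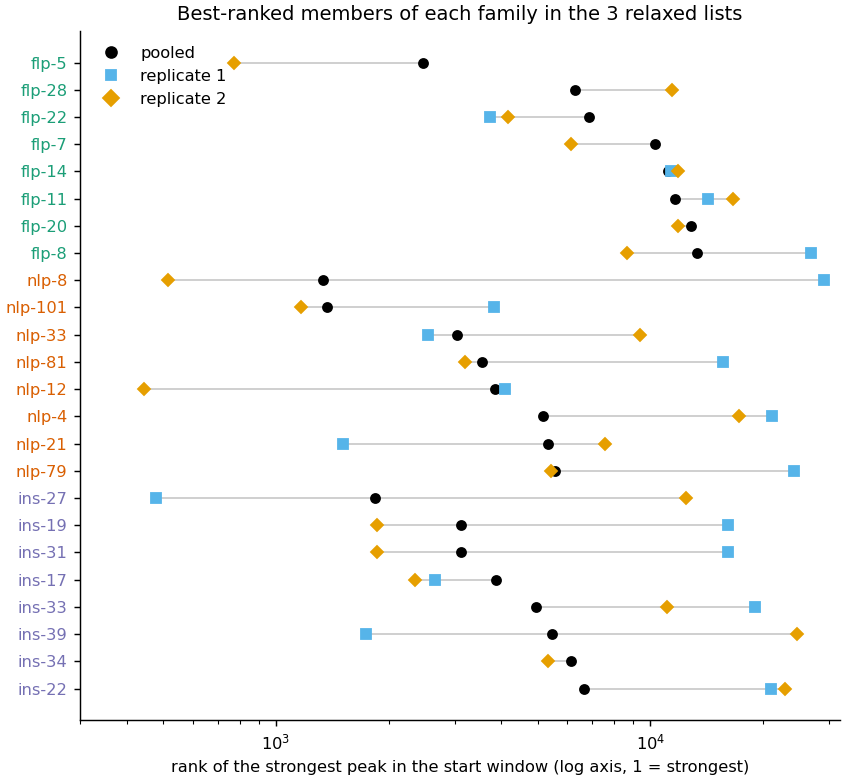
Rank of the strongest peak in the start window for the 8 best pooled members of each family (log axis, rank 1 at the left), in the pooled list (circles), replicate 1 (squares) and replicate 2 (diamonds), with a missing marker where that list has no summit in the window. The best pooled ranks are 1332 for nlp-8, 1839 for ins-27 and 2473 for flp-5, and grey lines show how far the replicates lie apart.

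Among the flp genes the best-ranked peak belonged to flp-5. It ranked 2473 in the pooled list with a signal of 99.0, and 772 in replicate 2, and replicate 1 had no summit in the window. The pooled summit was 853 bp upstream of the start, in intergenic sequence, and the nearest replicate 1 summit lay 3541 bp from it. The next, flp-28, ranked 6305 in the pooled list and 11439 in replicate 2, again with none in replicate 1. Its summit lay 174 bp upstream, in an intron of the gene W07E11.1. The gene flp-7, whose peptides are known to signal to fat metabolism, ranked 10299 in the pooled list and 6131 in replicate 2, with none in replicate 1. These 3 peaks were therefore seen in 1 replicate only.

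The gene flp-22 was the one flp gene within the first 5000 peaks of both replicates. It ranked 6856 pooled, 3727 in replicate 1 and 4154 in replicate 2. Its replicate 2 summit lay 28 bp from the pooled one, 782 bp upstream of the start, but the replicate 1 summit was 546 bp away, so the replicates did not mark the same place. The 3 flp genes with a shared summit were flp-14, flp-11 and flp-17. The peak of flp-14 had nearly equal ranks, 11149 pooled, 11335 in replicate 1 and 11856 in replicate 2, and lay 386 bp upstream. The sleep-promoting peptide gene flp-11, used by the RIS neuron, ranked 11648, 14238 and 16611 in the same order, with the summit 82 bp into its own exon.

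Other flp genes named for their known roles had a summit beyond the first 10000 peaks or none. The genes flp-18 and flp-21 encode ligands of the receptor NPR-1. The first ranked 20175 pooled and 26856 in replicate 2, with none in replicate 1. The second had a single summit, rank 26511 in replicate 1. No list had a summit in the window of flp-1, a gene known to shape locomotion, or of flp-13, known from stress-induced sleep. The best flp peaks of replicate 1 were those of flp-6 at rank 3335, flp-22 and flp-10 at rank 7143. The flp-6 summit of replicate 1 was 980 bp from the pooled one, which ranked 26822, with replicate 2 at 19066, and flp-10 had no summit in the other lists.

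Among the nlp genes nlp-8, a gene known from stress-induced sleep, ranked best, and it rested on replicate 2. Its pooled rank was 1332, with a signal of 107.5, and its rank in replicate 2 was 514. In replicate 1 the strongest peak in the window ranked 29008, and the summit 30 bp from the pooled one ranked 29609, near the end of the list. The pooled summit lay 604 bp upstream of the start, at chrI:7802234-7802617 (ce11), in intergenic sequence. The lowest pooled signal in the thresholded list was 145.8.

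The gene nlp-101 had high ranks in all 3 lists, 1370 pooled, 3810 in replicate 1 and 1164 in replicate 2. The replicate 1 summit was 38 bp and the replicate 2 summit 190 bp from the pooled summit, which lay 605 bp upstream. The gene nlp-12 encodes a cholecystokinin-like peptide of the stretch-sensing neuron DVA that modulates locomotion. It ranked 3840 pooled, 4099 in replicate 1 and 444 in replicate 2. Its pooled summit, 558 bp upstream, lay in an exon of emr-1, the gene for the nuclear envelope protein emerin, whose start was nearer. The replicate 2 summit at rank 444 lay past the nlp-12 start, so these ranks do not refer to the same position.

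The 12 members named for shared summits included several nlp genes. The nlp-81 summit, 428 bp upstream, ranked 3553 pooled and 3202 in replicate 2, and the replicate 1 summit 9 bp away ranked 16034. The nlp-79 summit, 944 bp upstream, ranked 5577 pooled, 24166 in replicate 1 and 5430 in replicate 2. Both were thus weaker in replicate 1. The nlp-21 summit, 960 bp upstream, ranked 5337 pooled, and here the nearby replicate 1 summit at 3162 was stronger than that of replicate 2 at 27547. The nlp-21 window also held other summits, with best ranks of 1514 in replicate 1 and 7555 in replicate 2. The gene nlp-47 encodes a peptide related to gonadotropin-releasing and adipokinetic hormones. Its summit 936 bp upstream ranked 7851 pooled, 17577 in replicate 1 and 11135 in replicate 2, while a separate replicate 1 summit in the window ranked 1710.

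The glycine-rich peptides numbered nlp-24 to nlp-34 include antimicrobial peptides of the epidermis such as nlp-29 and nlp-31. Of these 11 genes, 7 had a pooled summit, 8 a replicate 1 summit, 5 a replicate 2 summit and 2 a shared one. Over all protein-coding genes the shares were 32.0, 32.4, 31.3 and 9.24%, and with 11 genes a difference from them was not tested. In 4 the pooled summit lay in the gene's own exon. The nlp-33 peak ranked 3042 pooled, 2549 in replicate 1 and 9366 in replicate 2, with both replicate summits within 14 bp of the pooled one, 220 bp past the start. The nlp-27 peak ranked 6813, 11374 and 11481 in the same order, 272 bp past the start. The nlp-24 peak ranked 7447 pooled and 1328 in replicate 1, with no summit in the window in replicate 2. The summits of nlp-24, nlp-27 and nlp-33 had 59.4, 57.4 and 57.4% G and C within 50 bp, against a median of 40.1% at the 68 distinct member peaks. These genes are known as close relatives, and how the authors placed reads that match more than 1 of them is not stated, so these values are uncertain.

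The antimicrobial genes nlp-29 and nlp-31 ranked below the first 10000 peaks in every list where they had a summit. The gene nlp-29 had a single summit, rank 25229 in replicate 1. The gene nlp-31 ranked 24305 pooled and 10925 in replicate 1, with none of replicate 2 in the window, and its pooled summit lay in an exon of the neighbouring nlp-34. A replicate 2 summit of rank 20100 lay 82 bp from that pooled summit, outside the nlp-31 window but inside that of nlp-34. The sleep-promoting gene nlp-22 ranked 5643 pooled, 11186 in replicate 1 and 6741 in replicate 2, and both replicate summits were within 78 bp of the pooled one. That summit lay in an exon of nlp-23, whose start was nearer. The gene nlp-40, whose peptides from the intestine time defecation, had 1 summit, rank 14132 in replicate 1.

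The insulin-like genes with the best ranks were ins-27, the pair ins-19 and ins-31, and ins-17. The ins-27 peak, 105 bp upstream of the start, ranked 1839 pooled and 477 in replicate 1, the best rank of any member in that replicate. In replicate 2 it ranked 12419, at a summit 133 bp from the pooled one. The genes ins-19 and ins-31 lie head to head and share a peak between them, 16 bp upstream of ins-19 and 584 bp upstream of ins-31. This peak ranked 3119 pooled, 16129 in replicate 1 and 1856 in replicate 2, with the replicate 1 summit 148 bp away.

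The peak of ins-17 had like ranks in both replicates. It ranked 3860 pooled with a signal of 92.5, 2666 in replicate 1 and 2356 in replicate 2. The summit lay in the first part of the gene, 252 bp past the start and inside an intron, with the replicate summits 95 and 42 bp from it. Of the 4 members within the first 5000 peaks of both replicates, which were flp-22, nlp-12, nlp-101 and ins-17, it was the only one with a shared summit. These were 4 of 141 members, beside 289 of 19973 protein-coding genes within the first 5000 of both, and a difference was not tested. The gene ins-17 encodes a peptide known to oppose DAF-2 signalling and to favour the arrested dauer larva.

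Other insulin-like genes with shared summits ranked lower or unevenly. The ins-39 summit, 876 bp upstream, ranked 5454 pooled, 1739 in replicate 1 and 24634 in replicate 2. The ins-22 summit, 166 bp into its exon, ranked 6630 pooled but 20960 and 22818 in the replicates. The neighbouring ins-23, with its summit 119 bp upstream, ranked 6826 pooled, 10061 in replicate 1 and 7311 in replicate 2. The gene ins-33 ranked 4952 pooled, 19026 in replicate 1 and 11100 in replicate 2, and its summit 299 bp past the start was at the edge of the window.

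Several insulin-like genes were named for their known roles and not for their values. Of the genes for DAF-2 activators, daf-28, ins-4, ins-6 and ins-7 had no pooled summit, as was the case for most protein-coding genes. The gene daf-28 had 1 summit, rank 9784 in replicate 1, and ins-6 had 1, rank 27526 in replicate 1. No list had a summit at ins-4. The gene ins-7 had 1 summit, rank 21823 in replicate 2. Of the inhibitors, ins-1 ranked 23057 pooled and 27618 in replicate 1, with none in replicate 2. The gene ins-18 ranked 13296 pooled, near the median of the members, 23583 in replicate 1 and 12214 in replicate 2. The ins-18 summit, 674 bp upstream, was shared. The gene ins-11, known from responses to pathogens in the intestine, had a single summit, rank 15582 in replicate 1. A difference between activators and inhibitors was not tested.

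**Figure D3:**
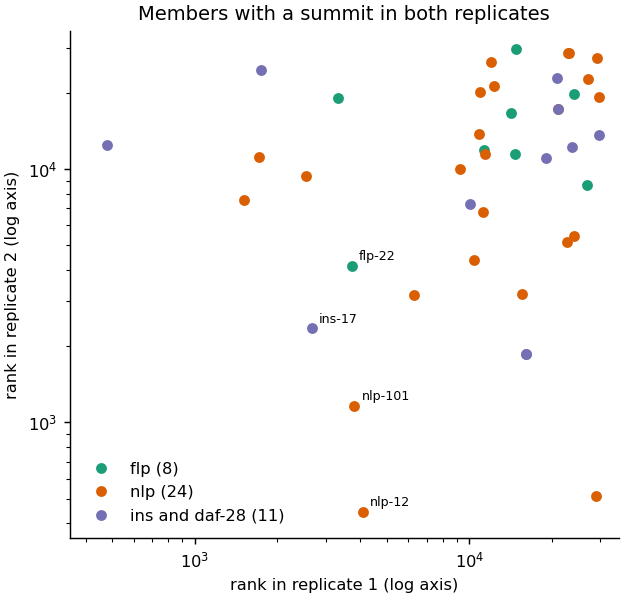
Rank in replicate 1 against rank in replicate 2 (log axes) of the strongest peak in the start window, for the 43 members with a summit in both replicates, coloured by family; the 4 members within the first 5000 of both are named. Most points lie in the upper right with low ranking in both, and nlp-8 lies at the lower right, at rank 29008 in replicate 1 and 514 in replicate 2.

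The ranks of the replicates were loosely related across members. Over the 43 members with a summit in both, Spearman's rho was 0.273, and Pearson's r of the log10 ranks was 0.17, or 0.23 without the 2 members farthest from the median. Over the 3103 protein-coding genes with a summit in both, rho was 0.219 and r was 0.458. All these points share the same 2 libraries and 1 control, so the correlations are descriptions. Of the 68 distinct pooled peaks at members, 31 had a replicate 1 summit within 100 bp, 45.6%, beside 48.7% at all protein-coding genes. For replicate 2 it was 50 peaks, 73.5%, beside 70.5%. The pooled list thus lay nearer to replicate 2 at members as it did at genes in general.

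Summits were denser at peptide genes than at all genes around the start, and away from it in some ranges but not in others. In the start window there were 0.458 pooled summits per kb, against 0.278 for all protein-coding genes and 0.299 over the genome. From 500 bp upstream to 100 bp downstream the densities were 0.496 and 0.248. From 3000 to 1000 bp upstream they were 0.287 and 0.293, so the values were close there in the pooled list. Replicate 2 gave 0.287 and 0.292 in that outer range, while replicate 1 gave 0.379 and 0.293. From 2500 to 3000 bp downstream the pooled density was 0.4965 at members against 0.3185, and in replicate 2 it was 0.4965 against 0.3164. From 2000 to 2500 bp downstream members were lower, at 0.2837 against 0.3162 pooled and 0.1986 against 0.3131 in replicate 2. Members were also lower in the pooled list from 3000 to 2500 bp upstream, 0.2411 against 0.2923, and from 2500 to 2000 bp upstream, 0.227 against 0.291. In replicate 1 members were above all genes in every bin of 500 bp from 3000 bp upstream to 3000 bp downstream. In the pooled list and replicate 2, members away from the start thus lay above all genes in some bins and below them in others.

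**Figure D4:**
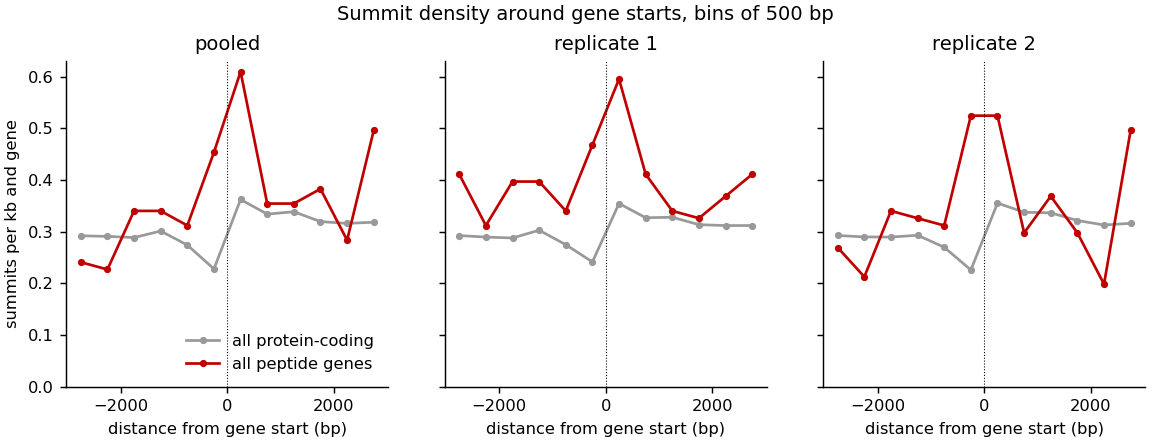
Summits per kb and gene in bins of 500 bp by distance from the gene start (negative is upstream), for the 141 peptide genes (red) and all protein-coding genes (grey), in the 3 relaxed lists. In the 500 bp upstream of the start the pooled list has 0.454 summits per kb at members against 0.228 at all genes, and in the 500 bp after it 0.610 against 0.362.

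Of the 70 members with a pooled summit, 46 had it upstream of the start, 65.7%, beside 69.5% of all genes with a summit, and the median position was 116 bp upstream at members (-116 bp) and 300 bp upstream at all genes (-300 bp). The start nearest to the summit was the member's own in 65 of 70, a count not taken over all genes. With each summit counted only for the nearest start whose window held it, 66 members kept a pooled summit, against 70 without that limit. Over all protein-coding genes it was 5509 against 6400, so most genes kept theirs too. Summits at members lay between genes in 37 of 68 distinct peaks, 54.4%, in exons in 22, 32.4%, and in introns in 9, 13.2%. At all protein-coding genes the corresponding shares were 39.6, 45.3 and 15.1%. In 17 of 70 members the summit lay in an exon of the member, and this share was not computed over all genes.

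Peptide genes also differ from other genes in their surroundings. The 1000 bp upstream held no other protein-coding gene in 106 of 141 members, 75.2%, against 48.1% of all protein-coding genes. Among genes with such clear upstream sequence, 52 of 106 members had a pooled summit, 49.1% (39.2 to 59), beside 32.1%. The base composition of the windows was alike, with a median of 35.4% G and C in members and 35% in all genes. With all genes weighted to the members' composition the background was 33.8% in the pooled list, 34% in replicate 1 and 32.7% in replicate 2. With all genes weighted to the members' chromosomes it was 32.2, 32.6 and 31.5%. The share of members was thus above the background within each of these settings.

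Whether other gene groups share this was looked at with 3 groups chosen after the values above had been seen. Nuclear receptor genes, a large family of ligand-regulated factors, had a pooled summit in 88 of 269, 32.7% (27.1 to 38.7). Collagen genes of the cuticle had one in 57 of 156, 36.5% (29 to 44.6), and genes with only a letter-number name in 3318 of 10573, 31.4%. These shares lay near the background of 32.0%.

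**Figure D5:**
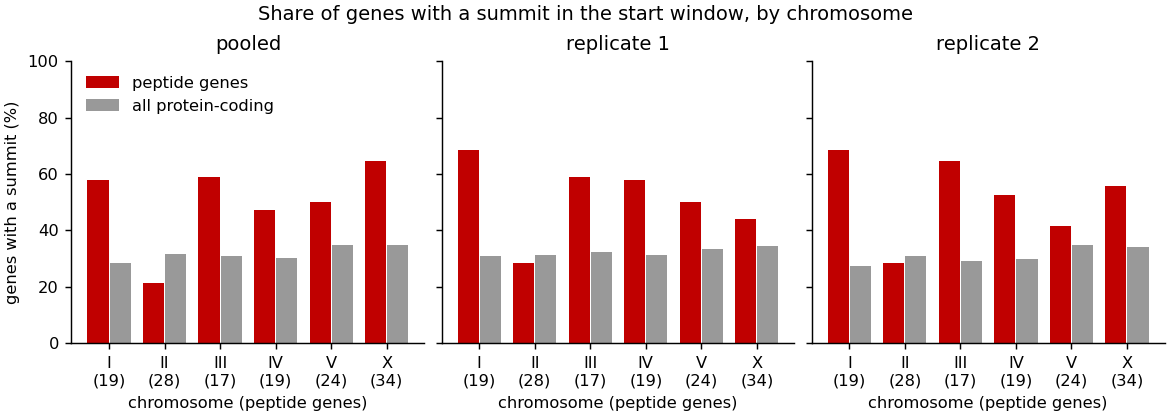
Percent of peptide genes (red, number of genes under each chromosome) and of all protein-coding genes (grey) with a summit in the start window, by chromosome, in the 3 relaxed lists. On II the peptide genes are at 21.4, 28.6 and 28.6%, below or near the grey bars, and on the other chromosomes the red bars are the higher in all 3 lists.

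Chromosomes differed. On chromosome II, which carries 28 members and 15 of the insulin-like genes, 6 members had a pooled summit, 21.4%, beside 31.5% of all genes there. The ins genes on chromosome II gave 2 of 15 in the pooled list, 4 in replicate 1 and 3 in replicate 2. In each list these counts include ins-19 and ins-31, which have 1 summit between them. All genes on chromosome II were at 31.5, 31.4 and 30.8% in the same order. Off chromosome II the members reached 64 of 113, 56.6%, beside 32.2%. On X, with 34 members, 22 had a pooled summit, 64.7%, beside 35.0%. Replicate 1 gave 44.1%, beside 34.6% of all genes on X, and replicate 2 gave 55.9%, beside 34.2%. Of the 13 flp genes on X, 10 had a summit in the pooled list and 10 in replicate 2, while replicate 1 had 2. The shares of all genes on X just given are the background for these counts.

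E-boxes were found at summits of members in a share close to that at all genes. Within 50 bp of the summit, 26 of 68 distinct member peaks held the form CANNTG, which reads the same on both strands, 38.2% (26.7 to 50.8), beside 37.3% at all protein-coding genes with a peak. Within 25 bp the shares were 19.1 and 20.6%, and within 100 bp 58.8 and 60%. By family, 8 of 16 flp peaks, 15 of 37 nlp peaks, 40.5%, and 3 of 15 insulin-like peaks, 20% (4.33 to 48.1), held one within 50 bp. The nlp-22 summit had 3 such E-boxes, each of a different form. A match of these letters is not a binding site, and its absence says nothing about the factor.

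Genes that act with the peptides were looked at in 3 lists. Receptor genes for neuropeptides were the nearest to the peptide genes, with a pooled summit in 44 of 98, 44.9% (34.8 to 55.3), beside 32.0% of all genes. Their share was 41.8% in replicate 1, beside 32.4%, and 46.9% in replicate 2, beside 31.3%. A summit of both lay at 29 of 98, beside 15.5% of all genes. In the pooled list their best-ranked peaks were ahead of the best peptide gene, nlp-8 at 1332. This order did not hold in replicate 1 for the 2 receptor genes named next, which ranked behind ins-27 at 477. The gene npr-37 ranked 510 pooled, 9405 in replicate 1 and 171 in replicate 2, and frpr-5 ranked 946, 6027 and 3989. Genes for processing and release of peptides had a pooled summit in 5 of 14, 35.7% (12.8 to 64.9), which is near the background of 32.0%. There were 7 in replicate 1, 50% beside 32.4%, and 2 in replicate 2, 14.3% beside 31.3%. Of these, ida-1, a protein of dense-core vesicles, ranked 8816 pooled and 4048 in replicate 2 with none in replicate 1, and egl-3, the proprotein convertase that cuts the precursors, ranked 19740, 17963 and 20444.

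The insulin signalling genes held 1 thresholded peak. Of 15 genes, 3 had a pooled summit, 20% (4.33 to 48.1), an interval that includes the 32.0% of all genes. Replicate 1 gave 5, 33.3% beside 32.4%, and replicate 2 gave 4, 26.7% beside 31.3%. The gene ftt-2 encodes a 14-3-3 protein that binds the factor DAF-16. Its peak, 771 bp upstream, ranked 18 pooled, 68 in replicate 1 and 13 in replicate 2, and was the only one of the 3 lists in the thresholded set. The gene asna-1, which promotes insulin secretion, ranked 6250 pooled and 6945 in replicate 2, with none in replicate 1.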

How the data were processed

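ChIP-seq peak lists of HLH-17 in 2 replicates were used as deposited, on ce11. Per the labels and deposited notes, each replicate and the pool have a relaxed list and there is 1 thresholded list. The signal of each peak is the authors' own and its scale is unknown, so peaks were ranked by it inside each list only. Another column, a deposited score that the format defines as −log10 of q, falls below 0 for some peaks and was used only for an alternative (q of 1 or less). That limit kept 90.4% of the pooled peaks but 33.0% of the thresholded ones. It thus removed a larger part of the strongest peaks and is no cut for quality. For aligner and caller, neither name nor version is given in the sources used here.

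Gene starts came from Ensembl release 115 (WBcel235), and sequence from the RefSeq genome of that assembly. For each gene the strongest peak with a summit in the start window was taken in each list, and a summit may count for more than 1 gene. Shares have exact Clopper-Pearson 95% intervals. No test was run. The assignment was tested on simulated summits. Python 3.11.15, pandas 2.3.3, numpy 2.4.6, scipy 1.17.1 and matplotlib 3.10.9 were used.

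The members, gene lists and settings were chosen with earlier results of these data known. Named are the 5 best pooled and 3 best replicate members per family, up to 12 members with a shared summit, a fixed set of well-studied genes, and the 2 best of each related list. The gene rab-2 was not matched in the annotation by that name. Other genes named (ins-13, nlp-4, flp-17), the rank tiers of 1000 and 5000, the chromosome splits and the 3 other gene groups were chosen after values were seen. Alternatives varied the window, the starts, the rank limit, the summit distance and the list, with a single replicate in place of the pooled list.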

Additional observations from a re-analysis of the deposited data

How the results depend on the processing

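Of 68 alternative values, 40 were counted as the same and 28 as moved, but this split does not follow the size of a change. The member count with the window from 2000 bp upstream, 95 against 70, was counted as the same. The median rank of all genes with nearest starts, 14604 against 14358, was counted as moved. From 500 bp upstream to 100 bp downstream, 41 members had a pooled summit, 29.1% beside 14.3% of all genes, with 10 flp, 22 nlp and 9 insulin-like genes, and 2858 of all genes. There, 14 members had both replicates and 11 a shared summit. From 2000 bp upstream, 67.4% of members and 50.1% of all genes (10016) had a pooled summit, with 68 members in both replicates and 35 with a shared summit. Among the first 10000 peaks there were 27 members, 19.1% beside 11.4% (2278 genes), with 3 flp (9.68%, below the background), 14 nlp and 10 insulin-like genes. Summits within 50 bp gave 13 shared members and within 200 bp 35. For both replicates and for shared summits, the alternative settings were counted at members only. No background stands beside those counts, so they do not show whether members differ from all genes. With clear upstream sequence 3081 genes had a summit, and weighting by base composition, also added after seeing the data, moved the background to 33.8%. The median rank of members was 13608 to 14622 in single replicates. That of all genes was 14921 and 13292 in the narrow and wide windows, 13661 with all transcript starts, 14604 with nearest starts and 13944 to 13956 in single replicates. E-box shares of members were 19.1% within 25 bp and 58.8% within 100 bp. The share of members in the pooled list was above the background under every alternative listed here that used that list. The alternatives without a replicate were the list of the other replicate, already given above, and are no separate check. They gave 19 flp genes in replicate 2 and 11 in replicate 1, against 16 pooled.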
